A study of Rattus norvegicus with 6 samples.

Results

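Metallothioneins and zinc transporters of the Slc30 family were described in neural progenitors of the rat cortex, together with *Mtf1*, the transcription factor that senses zinc. The 11 genes were chosen by symbol from the 17337 gene IDs of the mRNA-sequencing tables, as every ID of the form Mt1 to Mt4 with at most 1 letter after the digit (*Mt1a*, *Mt2A*, *Mt3* and *Mt4*), 6 transporters (*Slc30a1*, *Slc30a3*, *Slc30a4*, *Slc30a5*, *Slc30a9* and *Slc30a10*) and *Mtf1*. The set was drawn up with the mRNA levels of these same 4 libraries in view, so the levels below are a description and no test was run on them. The cells came from cortices of Sprague Dawley rats at embryonic day 14, were grown in Knockout DMEM/F-12 with StemPro Neural Supplement, GlutaMAX, 20 ng/ml bFGF and 20 ng/ml EGF, and were taken after the second passage. There was 1 condition, with no treatment and no altered gene, and the number of embryos behind a culture is not stated in the sources used here. PolyA RNA came from 2 independent cultures, replicates A and B, and 2 technical libraries were sequenced for each (A1 and A2, B1 and B2). This grouping follows the sample labels, column names of the study's gene list can also be read as joining A1 with B1 and A2 with B2, and each SD, each difference of B minus A and each count of non-overlap below rests on the labels. The mRNA level is given as FPKM, which is scaled to transcript length and library depth. Levels can so be set side by side between genes, but how well this scaling holds for short transcripts was not tested. Means are of replicates A and B after the libraries of each were averaged, with the SD over these n = 2, and with 2 replicates of 1 condition no comparison could be tested.

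Metallothioneins are short proteins rich in cysteine that bind zinc and copper and so buffer the free metal in the cytosol. *Mt3* is the member known from the brain, *Mt1a* and *Mt2A* are made in many tissues and are induced by metals and glucocorticoids, and *Mt4* is known from stratified epithelia. When zinc in the cytosol rises, the zinc-finger protein encoded by *Mtf1* binds short metal response elements (MREs) in the promoters of metallothionein genes and of *Slc30a1*. Most proteins of the Slc30 family (ZnT) carry zinc from the cytosol into organelles or out of the cell and are called exporters here, although the *Slc30a9* protein is known to move zinc out of mitochondria, and those of the Slc39 family (ZIP) carry it into the cytosol.

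The 4 metallothionein genes lie next to each other on the minus strand of chromosome 19 of rn6, within 39.9 kb (chr19:11301991-11341863). *Mt1a* spans 11301991 to 11303007, *Mt2A* 11307966 to 11308740, *Mt3* 11324708 to 11326112 and *Mt4* 11339767 to 11341863. The only rows of the table that started within 20 kb of a metallothionein row were other metallothioneins, and 0 rows of other genes overlapped any of the 11 genes on either strand. The promoter sequences of the cluster are shown because these neighbouring genes, which share MREs and a TATA box, had mRNA levels from 4580 FPKM on average down to almost 0, and that of *Slc30a1* is shown as the exporter gene known to be bound by the *Mtf1* protein. They are the 250 bases before the start site of each gene in RefSeq on the build GRCr8, whose coordinates differ from those of rn6, and *Mt1a* is named *Mt1* there. Each is written 5′ to 3′ on the strand of the gene, and capitals mark matches to the MRE, searched as TGCACNC or TGCGCNC on both strands. The windows are chr19:10832976-10833225 for *Mt1a*, chr19:10838709-10838958 for *Mt2A*, chr19:10856081-10856330 for *Mt3* and chr19:10871832-10872081 for *Mt4*, all on the minus strand, and chr13:106021769-106022018 on the plus strand for *Slc30a1*.
Mt1a: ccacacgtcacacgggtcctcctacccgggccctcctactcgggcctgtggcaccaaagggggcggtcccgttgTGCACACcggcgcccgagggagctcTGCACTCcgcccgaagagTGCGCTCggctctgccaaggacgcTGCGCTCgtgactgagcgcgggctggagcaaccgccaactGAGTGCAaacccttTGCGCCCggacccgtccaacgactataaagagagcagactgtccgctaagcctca
Mt2A: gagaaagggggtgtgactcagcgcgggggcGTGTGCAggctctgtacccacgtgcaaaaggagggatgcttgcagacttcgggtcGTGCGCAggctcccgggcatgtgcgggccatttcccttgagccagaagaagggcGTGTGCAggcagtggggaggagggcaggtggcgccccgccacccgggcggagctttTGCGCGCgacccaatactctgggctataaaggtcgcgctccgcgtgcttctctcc
Mt3: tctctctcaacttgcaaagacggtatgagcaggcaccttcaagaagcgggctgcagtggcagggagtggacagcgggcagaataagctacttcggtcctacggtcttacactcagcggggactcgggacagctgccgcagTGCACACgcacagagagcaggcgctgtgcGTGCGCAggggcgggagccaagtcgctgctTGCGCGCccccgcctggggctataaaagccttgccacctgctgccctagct
Mt4: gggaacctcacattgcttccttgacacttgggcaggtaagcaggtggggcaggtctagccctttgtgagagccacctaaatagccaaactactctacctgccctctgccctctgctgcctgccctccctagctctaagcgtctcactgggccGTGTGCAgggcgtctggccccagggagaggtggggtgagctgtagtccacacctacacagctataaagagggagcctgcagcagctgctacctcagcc
Slc30a1: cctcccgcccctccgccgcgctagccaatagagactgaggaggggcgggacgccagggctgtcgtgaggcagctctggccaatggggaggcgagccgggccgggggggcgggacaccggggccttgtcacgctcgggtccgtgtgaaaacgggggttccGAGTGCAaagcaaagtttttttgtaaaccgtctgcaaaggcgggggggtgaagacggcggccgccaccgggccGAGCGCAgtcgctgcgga

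The *Mt1a* window held 6 MRE matches, *Mt2A* 4, *Mt3* 3 and *Mt4* 1. Of the 33469 promoters in the same RefSeq table, 20.6% had at least 1 match in these 250 bases, 1.17% had at least 3, 0.266% had at least 4 and 0.0269% had at least 6. All 4 metallothionein windows held TATAAA, between positions -37 and -26 relative to the start site, and 12.9% of all promoters held it somewhere in the window. The authors report that many RefSeq start sites of rn6 differ from those they mapped in these cells. All positions here rest on RefSeq starts of GRCr8, and the sites mapped by the authors were not used. Among the other genes, *Slc30a1*, *Slc30a4*, *Slc30a5* and *Mtf1* had 2 MRE matches each, and 4.90% of all promoters had at least 2. Those of *Slc30a5* overlapped each other on opposite strands, while the pair in *Slc30a1* began at positions -91 and -18. *Slc30a3* and *Slc30a9* had 0 matches. The rn6 rows of *Slc30a3* and *Slc30a10* span 7054 and 10465 bp, against 20449 and 54779 bp for these genes in GRCr8. Their levels and the count of overlapping rows rest on the shorter rows. The *Slc30a3* window may not lie before the start of its rn6 row. Promoter sequences were found for 10 of the 11 genes, all but *Slc30a10*. These windows are rich in G and C, from 59.6% in *Mt4* to 82.0% in *Slc30a4* against a median of 51.2% over all promoters, and one of the searched words contains CG.

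**Figure D1:**
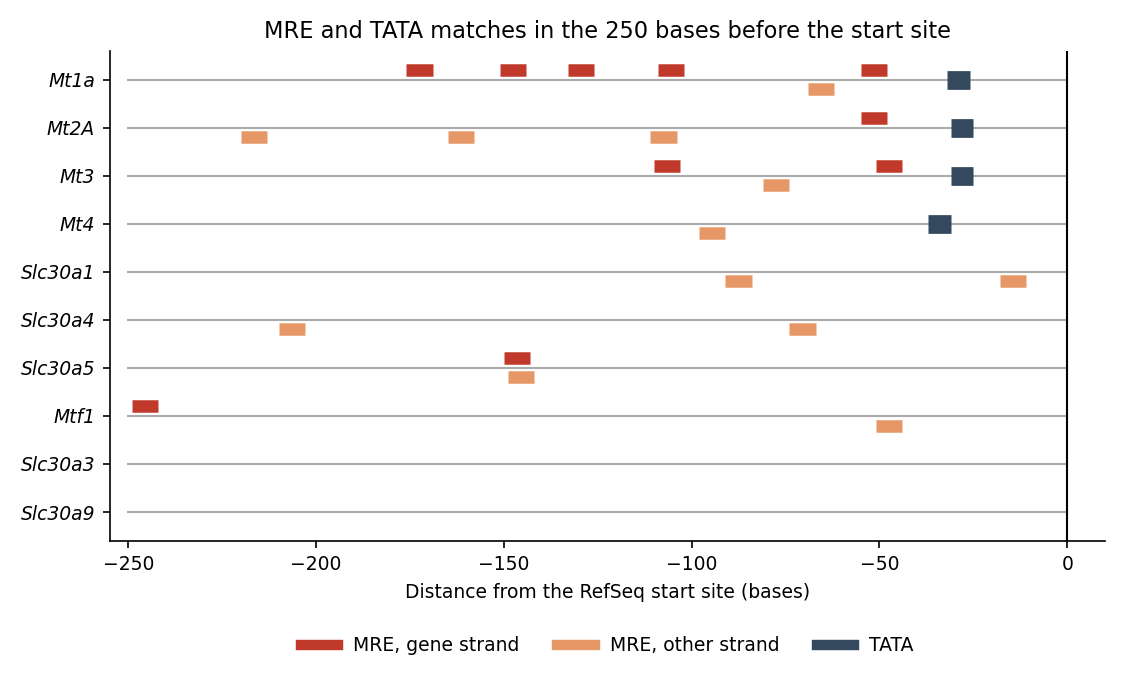
MRE matches on the gene strand (dark red, above the line) and on the other strand (orange, below the line) and TATAAA matches (blue) in the 250 bases before the RefSeq start site of 10 genes, with the distance from the start site in bases on the horizontal axis. The 6 matches of *Mt1a* lie between positions -176 and -49, the 4 metallothionein genes share a TATA match close to the start site, and *Slc30a3* and *Slc30a9* have no MRE match.

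Other motifs were searched in the same windows. The antioxidant response element, searched as TGACNNNGC on both strands, was found once each in *Mt1a*, *Mt2A*, *Slc30a1* and *Slc30a5* and at 2 places in *Mtf1*, and 10.1% of all promoters held at least 1. The E-box CACGTG, which reads the same on both strands and was counted once, was present in *Mt2A*, *Slc30a3* and *Slc30a5*, against 5.59% of all promoters. GGGCGG, the GC box, was present in 9 of the 10 windows, all but *Mt4*, against 30.5% of all promoters. GGGCGG and CACGTG also contain CG, and all 10 windows are above the median G and C content of all promoters. A match of letters is not a bound site.

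*Mt3* was among the most abundant mRNAs of these cells. Its level was 4093 FPKM in A1 and 4828 FPKM in A2, and 4266 FPKM in B1 and 5131 FPKM in B2. The libraries of A and B overlapped, and the higher value of each pair was in the second library. The mean was 4580 ± 168 FPKM (SD, n = 2), which ranked 3 among the 17337 gene IDs, and the rank within single libraries was between 2 and 4. *Mt3* alone made up 0.718%, 0.803%, 0.697% and 0.854% of all TPM in A1, A2, B1 and B2.

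*Mt2A* was the next of the metallothioneins. Its FPKM was 591 and 733 in A1 and A2 and 574 and 684 in B1 and B2, so A and B overlapped here too. The mean of 645 ± 23.1 FPKM (SD, n = 2) ranked 133. *Mt3* exceeded *Mt2A* by a ratio of FPKM of 6.93 and 6.59 in the libraries of A and of 7.43 and 7.51 in those of B, a mean of 7.11 ± 0.50 (SD, n = 2).

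*Mt1a*, the third metallothionein, was lower in replicate B. It stood at 261 FPKM in A1 and 317 FPKM in A2 against 144 FPKM in B1 and 209 FPKM in B2, and both libraries of B lay below both libraries of A. The mean was 233 ± 79.2 FPKM (SD, n = 2), at rank 402. Relative to it, *Mt2A* was higher by a ratio of 2.27 and 2.31 in A1 and A2 and of 3.98 and 3.27 in B1 and B2, so the balance between this pair of neighbouring genes differed between the replicates while that of *Mt3* and *Mt2A* varied less. The coding sequences of *Mt1a* and *Mt2A* are alike, and how reads that fit several places were counted is not given in the sources used here, so the split of reads between them is uncertain.

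*Mt4* was almost absent. It was listed at 0 FPKM in A1, at 0.0344 FPKM in A2, at 0.00837 FPKM in B1 and at 0.366 FPKM in B2, all below 1 FPKM. The read coverage behind these values was 0, 0.781, 0.204 and 2.50 per base, whereas *Mt3* had coverage between 35070 in B2 and 109692 in A2. The value of B2 stood apart from the other 3, and B2 was also the shallowest library.

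Together the metallothioneins summed to 4945, 5877, 4985 and 6024 FPKM in A1, A2, B1 and B2, a mean of 5458 ± 66.3 FPKM (SD, n = 2). *Mt3* contributed 82.8% and 82.1% of this sum in the libraries of A and 85.6% and 85.2% in those of B, a mean of 83.9% ± 2.06. *Mt2A* contributed 11.8% ± 0.546 and *Mt1a* 4.26% ± 1.52 (SD, n = 2). The share of *Mt1a* was 5.27% and 5.39% in A and 2.90% and 3.47% in B. The sum was 56.7 to 78.6 times that of the whole Slc30 family, depending on the library.

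**Figure D2:**
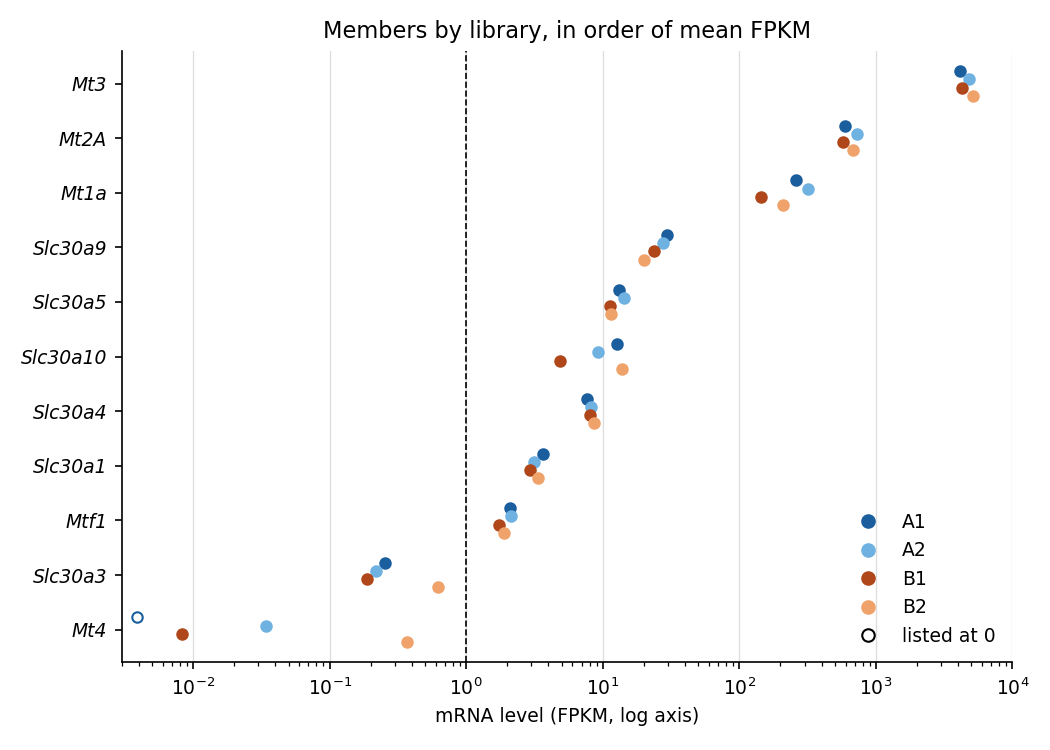
mRNA level in FPKM (log axis) of the 11 genes in the 4 libraries, 1 point per library, ordered by mean FPKM, with a dashed line at 1 FPKM and an open circle for a gene listed at 0. The 3 expressed metallothioneins lie above every exporter in all 4 libraries, with *Mt3* between 4093 and 5131 FPKM, and *Slc30a3* and *Mt4* lie below 1 FPKM.

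The zinc exporters were expressed at levels far below *Mt3*, *Mt2A* and *Mt1a*, and above *Mt4* by their means. Of the 6, 5 averaged 1 FPKM or more, and with *Mtf1* and 3 metallothioneins this made 9 of the 11 genes. *Slc30a9*, the mitochondrial transporter, was the highest, with 29.6 FPKM in A1, 27.4 FPKM in A2, 23.7 FPKM in B1 and 20.2 FPKM in B2. Both libraries of B were below both of A, and the mean was 25.2 ± 4.65 FPKM (SD, n = 2). *Slc30a9* lies on the minus strand at chr14:42466006-42519679 of rn6.

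*Slc30a5* works as a pair with the *Slc30a6* protein and loads zinc into the early secretory pathway, where enzymes such as alkaline phosphatase receive it. It was at 13.1 and 14.4 FPKM in A1 and A2 and at 11.4 and 11.5 FPKM in B1 and B2, again lower in B without overlap, with a mean of 12.6 ± 1.64 FPKM (SD, n = 2). Its partner *Slc30a6*, not among the 11 genes, had 13.8, 15.4, 13.4 and 11.9 FPKM in A1, A2, B1 and B2, so the subunits of this pair stood at similar levels in each library. *Slc30a4*, which fills vesicles with zinc, had 7.71, 8.27, 8.09 and 8.69 FPKM in the same order. Its libraries overlapped between A and B, and its mean was 8.19 ± 0.282 FPKM (SD, n = 2).

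*Slc30a10* encodes a transporter of the plasma membrane that is known chiefly for export of manganese. Its level varied between libraries, with 12.7 FPKM in A1, 9.27 FPKM in A2, 4.90 FPKM in B1 and 13.9 FPKM in B2. B1 was the lowest and B2 the highest of the 4, so the spread within replicate B, 1.34 on the log2(FPKM + 1) scale, exceeded the difference between the replicates. The mean was 10.2 ± 1.10 FPKM (SD, n = 2), and this SD, taken after averaging B1 with B2, does not show that spread. The coverage behind the values was 308, 211, 119 and 95.2 per base in A1, A2, B1 and B2.

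*Slc30a1*, the exporter of the plasma membrane and with the metallothioneins the best known target of the zinc-sensing factor, was low. Its FPKM was 3.64, 3.15, 2.94 and 3.36 in A1, A2, B1 and B2, with overlap between the replicates and a mean of 3.27 ± 0.172 (SD, n = 2). This mean ranked 8941 of 17337. *Mtf1* itself had 2.10 and 2.13 FPKM in A and 1.75 and 1.90 FPKM in B, lower in both libraries of B, with a mean of 1.97 ± 0.209 FPKM (SD, n = 2) at rank 9670.

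*Slc30a3* loads zinc into synaptic vesicles of glutamatergic neurons and was below 1 FPKM in every library, at 0.255 and 0.219 in A1 and A2 and at 0.186 and 0.616 in B1 and B2. Its mean was 0.319 ± 0.116 FPKM (SD, n = 2), with B2 above the other 3. *Slc17a7*, the vesicular glutamate transporter of the neurons that hold synaptic zinc, was at 0.107, 0.106, 0.0852 and 0.0878 FPKM. Both genes were near the lower end of what the libraries measured, with a coverage of *Slc30a3* between 4.21 and 6.20 per base.

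Ordered by mean FPKM the genes were *Mt3*, *Mt2A*, *Mt1a*, *Slc30a9*, *Slc30a5*, *Slc30a10*, *Slc30a4*, *Slc30a1*, *Mtf1*, *Slc30a3* and *Mt4*. The 4 libraries of neighbours in this order overlapped for *Slc30a5* and *Slc30a10*, for *Slc30a10* and *Slc30a4*, and for *Slc30a3* and *Mt4*, and these places are not separated by the spread. For the other 7 neighbouring pairs the lowest library of the first gene was above the highest library of the second. *Mt1a* exceeded *Slc30a9* 9.22-fold by the means, the widest step of the order.

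**Figure D3:**
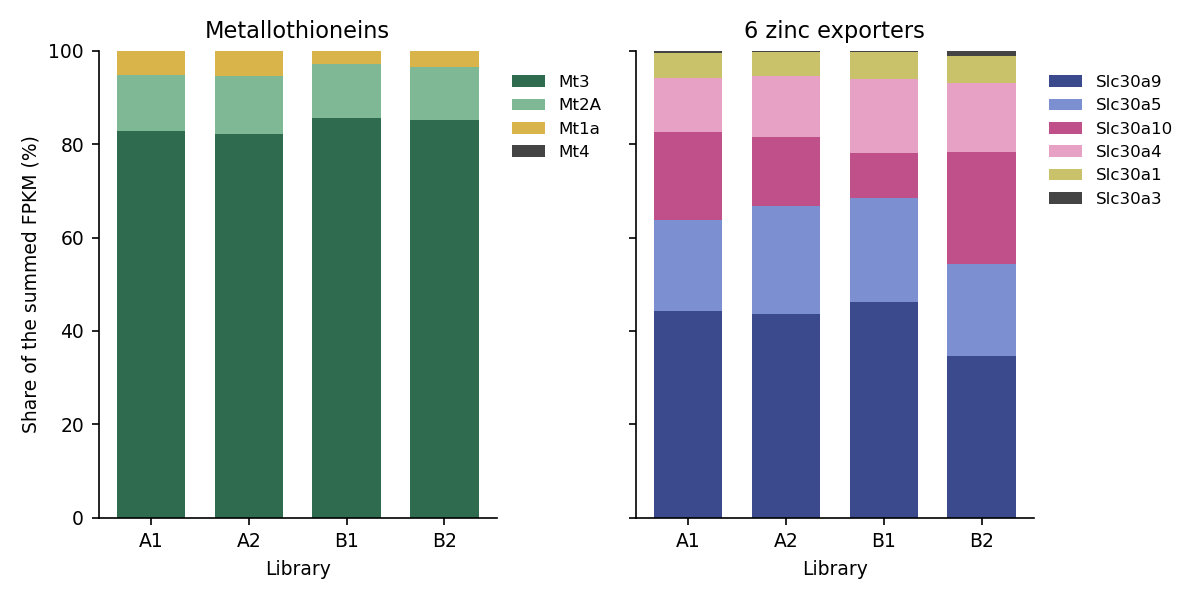
Share in percent of the summed FPKM of the 4 metallothioneins (left) and of the 6 exporters (right) that each gene contributed in each library. *Mt3* takes 82.1% to 85.6% of the metallothionein sum, while the exporter sum is divided between several genes, with *Slc30a9* at 34.7% to 46.2%.

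The exporter mRNA was spread over several genes. The 6 exporters summed to 67.0, 62.7, 51.2 and 58.3 FPKM in A1, A2, B1 and B2, a mean of 59.8 ± 7.17 FPKM (SD, n = 2). *Slc30a9* contributed 42.2% ± 2.47, *Slc30a5* 21.1% ± 0.205, *Slc30a10* 16.8% ± 0.0776, *Slc30a4* 13.9% ± 2.13, *Slc30a1* 5.49% ± 0.375 and *Slc30a3* 0.538% ± 0.245 (SD, n = 2). In single libraries the share of *Slc30a10* ran from 9.58% in B1 to 23.9% in B2, so its small SD hides a wide range.

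Replicates A and B were then set against each other. A gene was counted as apart when its mean was at least 1 FPKM, when the means of log2(FPKM + 1) differed by at least 1, and when the libraries of A and B did not overlap. Of all 10481 gene IDs that reached this mean, 6.15% were apart, 4.58% with the higher level in B and 1.57% with the higher level in A. Of the 9 genes of the set with such a mean, 0 were apart. The difference nearest to the limit was that of *Mt1a*, -0.72 for B minus A, followed by -0.37 for *Slc30a9* and -0.34 for *Slc30a10*. Without B1 that of *Slc30a10* was 0.33, in the other direction. With a limit of 0.58 in place of 1, *Mt1a* was apart, and so were 16.5% of all gene IDs. Without B2 the 1 gene of the set apart was *Slc30a10*, with a difference of -1.01, and 5.50% of all gene IDs were apart.

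The differences of the other genes were small. *Slc30a5* differed by -0.25, *Mtf1* by -0.14, *Slc30a1* by -0.082, *Mt2A* by -0.070, *Slc30a4* by 0.063 and *Mt3* by 0.074 on the log2(FPKM + 1) scale, B minus A. For *Mt3* and *Mt2A* the technical libraries of one replicate differed by 0.24 to 0.31, more than the replicates did, and the sign changed when single libraries were left out. The libraries of A and B did not overlap in 4 of the 9 genes (*Mt1a*, *Slc30a9*, *Slc30a5* and *Mtf1*), all lower in B, against 60.1% of all gene IDs in either direction. The share of all gene IDs lower in B without overlap was not counted, so this common direction has no share beside it. The median difference of the 9 genes was -0.14, and that of all 10481 gene IDs was -0.034. On this scale the change of genes with low FPKM is understated.

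**Figure D4:**
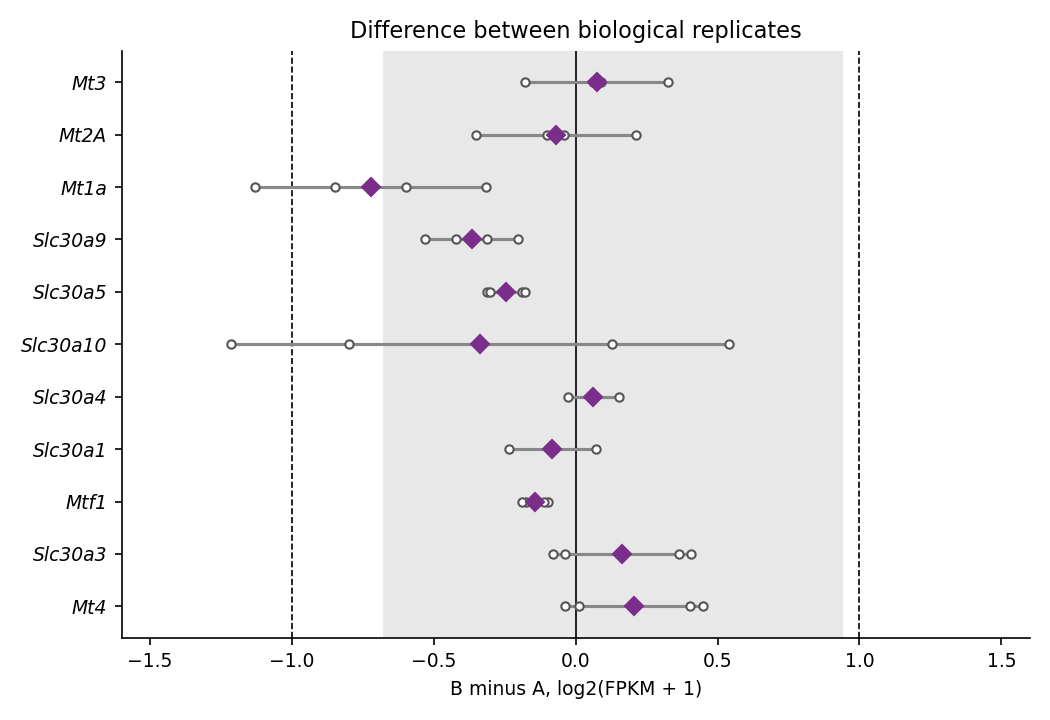
Difference of replicate B minus replicate A on the log2(FPKM + 1) scale for the 11 genes (diamonds), with the 4 pairings of 1 library of A and 1 of B (open circles, joined by a line), dashed lines at -1 and 1, and the range from the 5% to the 95% quantile of all gene IDs of at least 1 FPKM in grey. No diamond passes a dashed line, *Mt1a* at -0.72 lies just beyond the lower edge of the grey range at -0.67, and the pairings of *Slc30a10* fall on both sides of 0.

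Other features of the libraries differed along with replicate and library. The coverage that corresponds to 1 FPKM was 24.3, 22.7 and 24.4 in A1, A2 and B1 but 6.83 in B2, and total read numbers were not used. All 10 markers of neural progenitors reached a mean of 1 FPKM. Of these, 5 were lower in B without overlap and 0 higher, beside 60.1% of all gene IDs without overlap in either direction. Of the others, *Nes*, *Vim*, *Prom1* and *Slc1a3* were higher and *Pax6* was lower in B by the difference of means, with overlap. In each gene with the higher mean in B, only B2 was above both libraries of A. For *Nes*, *Vim* and *Slc1a3*, B1 was below both. The list median was -0.36. *Fabp7* and *Hes5* were apart and higher in A (1.57% of all gene IDs), with *Fabp7*, the gene of rank 1, at 16800 and 18557 FPKM in A and 6520 and 5485 FPKM in B, and *Hes5* at 397 and 400 FPKM in A and 197 and 162 FPKM in B. All 9 mesenchymal and meningeal markers were apart and higher in B (4.58% of all gene IDs), 0 of them listed at 0, and their summed FPKM was 741 to 743 in A and 2594 to 3675 in B. Some of them also differed widely between the technical libraries of replicate B, with *Ptgds* at 8.18 FPKM in B1 and 292 FPKM in B2 and *Foxc1* at 29.4 and 115 FPKM. Among 7 astrocyte markers *S100b* was apart with the higher level in A and *Glul* with the higher level in B, and the sum was 1213 to 1229 FPKM in A and 1117 to 1736 FPKM in B. Of 7 expressed neuronal markers, 5 were lower in B without overlap and 0 higher, beside the same 60.1% in either direction. For the progenitor and neuronal lists the share of all gene IDs lower in B without overlap was not counted. *Ttr*, the one expressed of 4 choroid plexus markers, had 80.7 and 82.6 FPKM in A and 26.4 and 3.03 FPKM in B. The 5 markers of the oligodendrocyte lineage summed to 92.3 and 94.3 FPKM in A and 178 and 122 FPKM in B, and *Pdgfra* was apart, with 9.50 and 9.09 FPKM in A and 59.5 and 59.4 FPKM in B. Markers of microglia, endothelium and blood cells, each list summed separately, came to at most 3.46 FPKM in any library. The part of these features in the lower *Mt1a*, *Slc30a9*, *Slc30a5* and *Mtf1* of replicate B was not tested, and in bulk RNA fewer cells of a type and less RNA per cell cannot be told apart.

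The wider zinc transport families gave the setting for these levels. All 10 listed genes of the Slc30 family were in the tables, 7 of them at 1 FPKM or more on average and 0 apart between A and B in either direction, where 6.15% of all gene IDs were apart, a share that also stands beside the counts of 0 in the lists below. Besides the 6 exporters above, *Slc30a6* and *Slc30a7* (6.27, 7.10, 6.37 and 6.55 FPKM in A1, A2, B1 and B2) were expressed, *Slc30a2* was at most 0.0290 FPKM, and *Slc30a8*, the transporter of insulin granules, was listed at 0 in all 4 libraries. Of the 14 Slc39 importers, 11 reached this level and 0 were apart. *Slc39a7*, which releases zinc from the endoplasmic reticulum, was the highest with 62.6 and 57.2 FPKM in A and 68.3 and 75.2 FPKM in B. *Slc39a1*, an importer of the plasma membrane, had 51.5 and 54.1 FPKM in A and 58.6 and 74.9 FPKM in B.

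Among the expressed genes, 3 of 7 in Slc30 and 5 of 11 in Slc39 were without overlap between the replicates, against 60.1% of all gene IDs. The Slc30 genes without overlap, *Slc30a5*, *Slc30a6* and *Slc30a9*, were all lower in B, and the median difference of the 7 expressed members, B minus A, was -0.20. Among the Slc39 genes *Slc39a1*, *Slc39a6* and *Slc39a7* were higher in B and *Slc39a10* and *Slc39a14* were lower, and the median of the 11 expressed members was 0.17, beside -0.034 for all gene IDs. The summed FPKM of the Slc39 family was 218 and 216 in A and 247 and 256 in B, and that of the Slc30 family was 87.1 and 85.3 in A and 70.9 and 76.7 in B. The ratio of Slc39 to Slc30 mRNA was 2.50 and 2.53 in A1 and A2 and 3.49 and 3.33 in B1 and B2, without overlap. This ratio was computed after the values were seen.

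**Figure D5:**
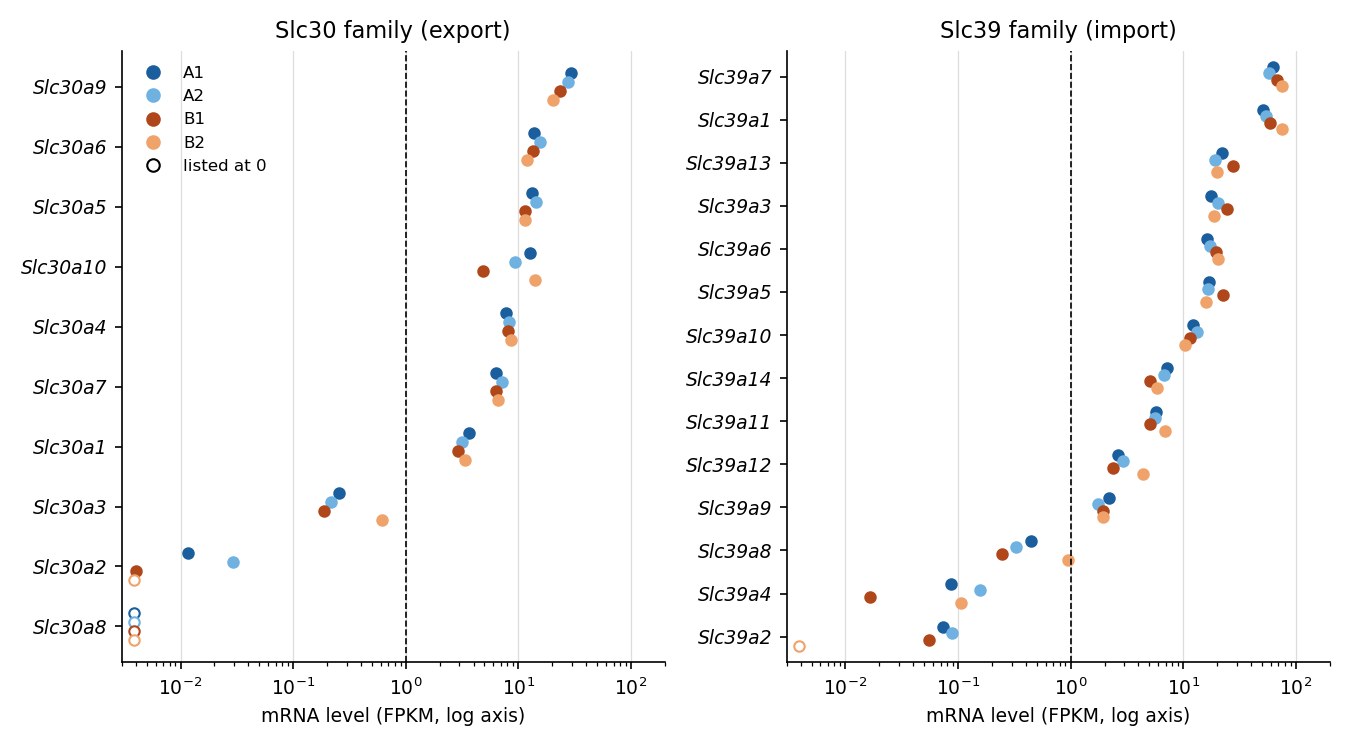
mRNA level in FPKM (log axis) of the Slc30 exporters (left) and Slc39 importers (right) in the 4 libraries, ordered by mean within each family, with a dashed line at 1 FPKM and open circles for values listed at 0. *Slc39a7* and *Slc39a1*, between 51.5 and 75.2 FPKM, lie above every exporter, and *Slc30a9* leads the exporters at 20.2 to 29.6 FPKM.

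The other regulators of the metallothionein genes that were found were all more abundant than *Mtf1* by mean FPKM. Of 10 listed, 9 were in the tables, all above 1 FPKM on average, and 0 were apart. *Usf1*, an E-box factor, had a mean of 134 ± 7.78 FPKM, *Stat3* 47.2 ± 4.17 FPKM and *Nfe2l2*, the factor that binds antioxidant response elements, 16.9 ± 1.08 FPKM (SD, n = 2). *Mtf1* was the lowest of the 9.

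Copper and iron genes were read as neighbouring metal pathways. Of 12 copper genes 11 were listed, 9 of them expressed at this level and 0 apart, and *Sod1*, the copper and zinc superoxide dismutase, was the highest at 463 ± 19.9 FPKM (SD, n = 2). Of 10 iron genes 9 were listed, 8 of them expressed at this level and 0 apart. The ferritin heavy chain *Fth1*, which stores iron, had 1913 and 2207 FPKM in A and 2714 and 2729 FPKM in B, and *Mt3* exceeded it in every library. *Hmox1*, the heme oxygenase that frees iron, fell just short of the limit for being apart, with a difference of 0.99. Of 9 partners that use or sense zinc, 7 were listed and 3 reached 1 FPKM on average, among them *Trpm7*, a zinc-permeable channel, with 22.0 and 20.2 FPKM in A and 13.7 and 14.7 FPKM in B, while *Gpr39*, the zinc receptor, was listed at 0 in all libraries.

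Genes with the most similar profile over the 4 libraries were sought by the distance of log2(FPKM + 1) after each gene was centred on its own mean. Among 1063 other gene IDs with a mean of at least 100 FPKM, those nearest to *Mt3* were *Atp6v1f* at a distance of 0.0165, *Ptms* at 0.0530 and *Arpc4* at 0.0548. *Mt2A* was at 0.153, the place 72 in this order, and *Mt1a* at 0.819, the place 924. The nearest to *Mt2A* were *Ifi27* at 0.0712, *Pfdn6* at 0.0714 and *Mrps21* at 0.0813. For *Slc30a1*, among 6636 gene IDs with a mean of at least 10 FPKM, they were *RGD1311783* at 0.0326, *Becn1* at 0.0426 and *Hirip3* at 0.0432. With 4 points, of which pairs are technical libraries of one culture, such likeness is a description of these libraries.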

How the data were processed

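PolyA RNA-seq of 2 biological replicates with 2 technical libraries each was used as deposited; the 2 Start-seq samples were not used here. The authors aligned reads to rn6 with STAR and deposited FPKM and TPM for each gene, with a coverage column, the read depth per base, which the authors left unscaled for library size. StringTie is listed in the submitters' processing notes and gives this table layout, while the methods name Rsubread and DESeq2 for expression levels. Versions are not given in the sources used here. The members and gene lists were chosen with earlier results of these data known. Rows of one gene ID were added up in FPKM and averaged over technical libraries within A and B. Differences are of the mean of log2(FPKM + 1), B minus A. The named genes are all members, the listed genes, the 3 nearest profiles of *Mt3*, *Mt2A* and *Slc30a1*, and neighbours within 20 kb. Motifs were searched in RefSeq promoters of GRCr8. Counting of apart genes was tested on simulated data, which checks the counting and not how far real libraries vary. Alternatives were TPM, library scaling, other limits and pseudocounts, and replicates or libraries left out. Python 3.11.15, pandas 2.3.3, numpy 2.4.6 and matplotlib 3.10.9 were used.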

Additional observations from a re-analysis of the deposited data

Results flagged for a closer look

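In 14 sets of 4 libraries (the 11 genes, their 2 sums and the depth) the highest or lowest library was compared with the others, and 3 stood out, each time B2. *Mt4* was at 0.366 FPKM in B2, with a gap to the nearest library of 0.906 of the whole range. *Slc30a3* was at 0.616 FPKM in B2, with a gap of 0.840 of the range. The coverage per FPKM was 6.83 in B2, with a gap of 0.906 of the range. About 1 in 20 such sets would be picked out by chance if the 4 libraries were independent, which technical pairs are not. Both genes are below 1 FPKM, and the part of the lower depth of B2 in their values was not tested.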

How the results depend on the processing

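Of 37 alternative values of the 6 summary results, 31 kept within the spread between replicates or, for counts, within 1.5 times. The shares of *Mt3* and *Slc30a9* had to be among these, so their alternatives test nothing. TPM and library scaling leave a share within a library unchanged. Leaving out A or B shifts a mean over both by less than its SD. The 9 genes at a mean of at least 1 FPKM became 6 at 10 FPKM, which is at the edge of the 1.5 times. They stayed 9 when 1 FPKM was required in every library. *Mt3* ranked 3 under each of the alternatives run for it, including TPM, library scaling, the highest row and rows spanning at least 500 bp. This span is that of the row on the genome, 1405 bp for *Mt3*, and does not test transcript length. The number of genes apart was 0 and became 1 at a difference of 0.58 (*Mt1a*), and from 0 to 1 when single libraries were left out, the 1 being *Slc30a10* without B2. The median difference of -0.14 became -0.21 with TPM, where the median of all genes was also lower (-0.084), -0.21 with a pseudocount of 0.1 and -0.082 with no minimum mean, and it ranged from -0.20 to -0.0084 when single libraries were left out, the latter without B1; the cause was not tested. The share of *Mt3* was 82.5% to 85.4% and that of *Slc30a9* 40.46% to 43.95% when replicate A or B was left out. The sign of B minus A changed in 7 cases with a library left out, over 5 genes (*Mt2A*, *Mt3*, *Mt4*, *Slc30a3* and *Slc30a10*), and for *Slc30a10* it was 0.33 without B1. For *Mt1a* it stayed between -0.99 and -0.46. No paired analysis was possible because there is 1 condition. For *Mt4* and *Slc30a3*, both below 1 FPKM, the high value was in B2 and not in B1 of the same replicate, and the sign of B minus A changed without B2.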
